A study of Mus musculus with 20 samples.

Results

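The core genes of the circadian clock were followed in the epididymal white adipose tissue (eWAT) of mice on normal or high-fat feed. The 10 genes were chosen by name, as the transcription factors Arntl and Clock, the repressors Per1, Per2, Per3, Cry1 and Cry2, the nuclear receptors Nr1d1 and Nr1d2, and the output factor Dbp. All 10 were among the 14776 genes of the deposited table, and all 10 passed the filter on low values in each comparison. The 20 mice were male C57BL/6J, 6 weeks old when feeding began. The NC group (6 mice by the labels, whereas the study describes groups of equal size) received maintenance feed. The HFD group (7 mice) received a high-fat diet for 14 weeks and then 6 further weeks of the same diet with saline given into the stomach. The SZ-A group (7 mice) received the same diet and, in the last 6 weeks, Ramulus Mori (Sangzhi) alkaloids, an extract of mulberry twig, at 400 mg per kg each day. RNA was sequenced after poly(A) selection and is given as FPKM, a unit that corrects for the length of a gene and the size of the library.

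The clock of mammalian cells is a transcriptional feedback loop. Arntl (also called Bmal1) and Clock form a dimer that binds E-box sequences and activates the Per, Cry, Nr1d and Dbp genes; PER and CRY proteins then inhibit the dimer, and the Nr1d proteins repress Arntl. Arntl RNA therefore peaks in mouse tissues at about the opposite time of day to Dbp RNA, and adipose tissue is known to carry such a clock, which feeding and fasting can shift. Level and hour of the day are tied for these genes. All mice were kept on 12 h of light per day, fasted from hour 17 and killed from hour 9 of the next day. The hour at which each mouse was killed, the order of the groups and the hour of lights-on are not given in the sources used here. A difference between groups in the hour of collection and a difference in clock gene level at one hour therefore cannot be told apart.

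Sequences bound by factors of the loop were looked for in the DNA next to the start of these genes. Stretches that hold them are shown for Cry1, Per1, Per3 and Arntl only, although Clock and Nr1d2 also held a match. Windows of 300 bases, 250 before and 50 after each annotated start, were available from RefSeq (GRCm38.p6) for 9 of the 10 genes, not for Per2, and 3 sequences were searched for on both strands. These were the E-box CACGTG, the D-box TTATGTAA or TTACGTAA, bound by Dbp and its relatives, and AGGTCA, the core of the element bound by Nr1d receptors. Capitals mark the matches; TGACCT is AGGTCA read on the other strand.
Cry1, chr10:85185069-85185154, minus strand: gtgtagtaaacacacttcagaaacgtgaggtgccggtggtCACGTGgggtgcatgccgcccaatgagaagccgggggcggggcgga
Per1, chr11:69098743-69098828, plus strand: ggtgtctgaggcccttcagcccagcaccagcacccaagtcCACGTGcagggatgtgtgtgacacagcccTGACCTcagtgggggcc
Per3, chr4:151044776-151044910, minus strand: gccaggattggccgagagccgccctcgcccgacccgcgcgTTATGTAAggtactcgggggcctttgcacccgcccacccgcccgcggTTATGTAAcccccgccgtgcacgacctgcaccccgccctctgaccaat
Arntl, chr7:113207530-113207559, plus strand: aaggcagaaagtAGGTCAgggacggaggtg

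The E-box of Cry1 began 60 bases before the start of the gene (position -60) and that of Per1 at position -166. CACGTG was thus present in 2 of the 9 genes, against 8.09% of all 27025 genes with a window. Per3 held 2 copies of TTATGTAA, at -205 and -158, and was the only 1 of the 9 with a D-box, against 1.23% of all genes with a window. AGGTCA was found in 4 of the 9 genes, Arntl (position 32 after the start), Per1, Nr1d2 and Clock, against 18.1% of all genes with a window. Arntl, Per1 and Clock had more than 1 window, and each also had a window with none of the 3 sequences. A match describes the letters of the window only, and the windows of Cry2, Nr1d1 and Dbp held none of the 3 sequences.

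The FPKM steps implied a scaling total of 13938405 to 19591891 per library. This total is not a count of fragments, as some libraries had more fragments on the deposited genes (HFD 1, 17216011 against 15406890). Fragments recovered on these genes ran from 13567667 to 19388628. Marker genes of several cell types differed in level between the pieces of tissue. The mean log2(FPKM + 1) of 8 adipocyte markers lay between 6.91 and 10.3 in 19 mice and at 4.70 in NC 6. That mouse also had the highest level, 7.67, of the 5 epithelial markers in the table, for which HFD mice gave 1.05 to 1.71 (14 further epithelial genes on the list were not in the table). The 10 macrophage markers gave 1.98 to 4.0 in NC. HFD mice lay at 6.79 to 7.95 and SZ-A mice at 5.34 to 6.80, and 10 of 10 were higher in HFD than in NC and 9 of 10 lower in SZ-A than in HFD. In bulk tissue, fewer cells of a type and less RNA per cell cannot be told apart, and the part of these shifts in the clock gene results was not tested. Of the 10 clock genes, NC 6 had the lowest NC level of 6, namely Clock, Per1, Per2, Cry1, Cry2 and Nr1d1. SZ-A 5 had the smallest scaling total and the highest mitochondrial share of reads, 11.6%. The fewest fragments on the deposited genes were those of NC 6 (13567667), against 15305451 in SZ-A 5. The group differences below are given without NC 6 or SZ-A 5 where that matters. Relations between genes and the spread within groups were not computed without SZ-A 5.

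Per length, Nr1d1 was the most abundant of the 10 genes, with a mean of 23.2 FPKM over the 20 mice. Per1 (15.8 FPKM) and Nr1d2 (13.5 FPKM) followed. Cry2 (7.04 FPKM), Dbp (6.96 FPKM), Clock (6.14 FPKM), Per2 (5.25 FPKM) and Cry1 (4.33 FPKM) lay close together, with ranges over mice that overlapped for each neighbouring pair. Per3 (2.98 FPKM) and Arntl (2.38 FPKM) were lowest. These means pool the groups, and the order of the lower genes changed with the group: in HFD mice Arntl (3.23 FPKM) was level with Cry1 (3.21) and above Per3 (2.20), and Per2 had a mean of 3.99 FPKM in NC mice but 7.45 in SZ-A mice. The fewest fragments for any of the 10 genes in a mouse were 45, for Dbp in SZ-A 5, and Arntl was counted with 155 to 678.

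**Figure D1:**
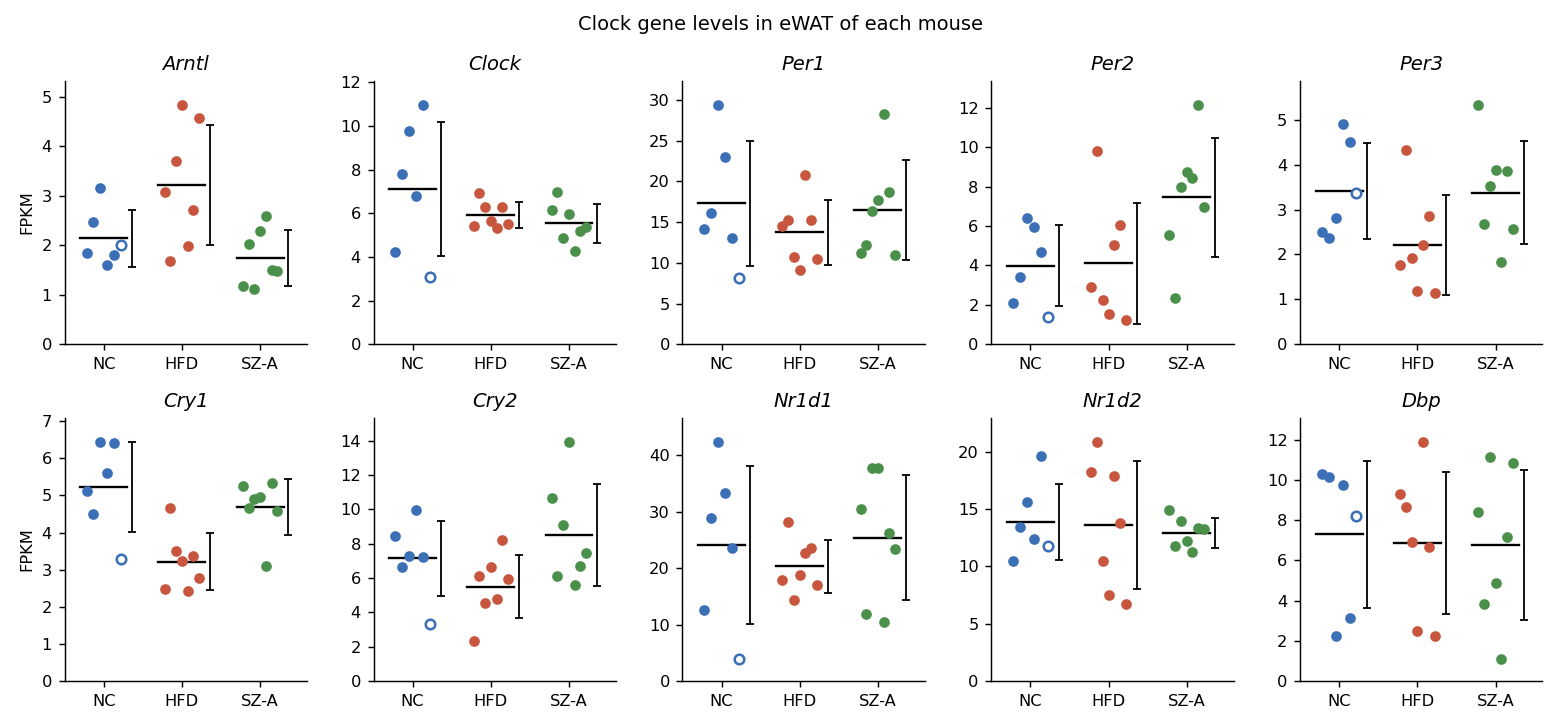
FPKM of the 10 clock genes in each mouse (y axis from 0, one panel per gene; NC 6, HFD 7 and SZ-A 7 mice on the x axis), with the group mean as a line and the SD as a bar beside it; the open circle is NC 6. Groups overlapped for each gene; Cry1 had a mean of 3.21 FPKM in HFD against 5.23 in NC, and Arntl was spread from 1.69 to 4.84 FPKM among HFD mice.

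One of the 10 genes differed between HFD and NC mice. Cry1, which encodes a repressor of the Arntl and Clock dimer, was lower in HFD than in NC mice, and the other 9 did not pass the test. Called here means an adjusted p under 0.05 by limma on log2(FPKM + 1), with Benjamini-Hochberg adjustment over all 14706 genes tested. Of all those genes 20.1% were lower and 21% were higher by this rule, beside 1 of 10 lower and 0 of 10 higher among the clock genes. With a log2 fold change limit of 1.5 added, 0 of 10 clock genes and 7.97% of all genes were called. In none of the 10 did the mice of the groups separate fully, as they did for 20.5% of all genes. The median difference of the 10 genes was -0.12 and that of all genes -0.04 on the log2 scale, and 2 of the 10, Cry1 and Per3, had an unadjusted p under 0.05, as did 49.6% of all genes.

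Cry1 (ENSMUSG00000020038, GRCm38 chr10:85131700-85185064, minus strand) ranged from 3.29 to 6.45 FPKM in NC mice with a median of 5.37. In HFD mice it ranged from 2.42 to 4.66 FPKM with a median of 3.25. The means were 5.23 ± 1.21 FPKM (SD, n = 6) and 3.21 ± 0.77 FPKM (SD, n = 7). The groups overlapped through 2 mice, NC 6 at 3.29 and HFD 2 at 4.66 FPKM: the other NC mice were at 4.51 FPKM or above and the other HFD mice at 3.51 or below. The difference was -0.56 on the log2(FPKM + 1) scale (SE 0.16, 95% interval -0.90 to -0.23, limma adjusted p = 0.011), and the two-sided exact permutation test gave p = 0.0076, where 0.00058 is the smallest possible. Without NC 6 the difference was -0.66, and the call held when any single mouse was left out. With the epithelial marker level as a covariate it was -1.19, but HFD and NC mice did not overlap in that level.

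The activators did not pass the test. Arntl (chr7:113207465-113314126, plus strand) was between 1.59 and 3.15 FPKM in NC mice, with a median of 1.92, and between 1.69 and 4.84 in HFD mice, with a median of 3.08. HFD 3, HFD 4 and HFD 7 were above each NC mouse, while HFD 1, HFD 2, HFD 5 and HFD 6 were within the NC range. The difference was 0.39 (SE 0.19, 95% interval -0.02 to 0.80, limma adjusted p = 0.12). Without HFD 2 it was 0.49 and past the threshold (limma adjusted p = 0.045). Clock, the partner of Arntl, ranged from 3.07 to 11 FPKM in NC and from 5.31 to 6.92 in HFD mice, a difference of -0.13 (95% interval -0.61 to 0.34).

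Among the Per genes, whose proteins act with CRY as repressors, Per3 differed most. Per3 (chr4:151003652-151044665, minus strand) was 2.37 to 4.91 FPKM in NC mice (median 3.08) and 1.13 to 4.33 in HFD mice (median 1.93). HFD 1, HFD 3, HFD 4, HFD 5 and HFD 7 were below each NC mouse, and HFD 2 was within the upper part of the NC range. The difference was -0.49 (SE 0.22, 95% interval -0.96 to -0.03, limma adjusted p = 0.084), and without HFD 2 it was -0.63 and past the threshold (limma adjusted p = 0.020). Per1 and Per2 differed by -0.25 (95% interval -0.81 to 0.31) and -0.06 (-0.89 to 0.77), and Cry2, the paralogue of Cry1, by -0.33 (-0.85 to 0.19). Without NC 6 the exact permutation test for Cry2 gave p = 0.038 with a difference of -0.50, against p = 0.24 with all mice.

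The repressors of Arntl and the output gene did not pass the test, with wide intervals. Nr1d1 ranged from 3.81 to 42.5 FPKM in NC and from 14.3 to 28.2 in HFD mice, and its difference of 0.04 (95% interval -0.86 to 0.93) turned to -0.38 without NC 6. Nr1d2 differed by -0.10 (-0.64 to 0.45). Dbp (chr7:45705088-45710203, plus strand), which encodes a D-box activator, differed by -0.07 (-0.93 to 0.79), with 2.25 to 10.3 FPKM in NC and 2.23 to 11.9 in HFD mice. With the epithelial covariate Nr1d1 was at -2.29, Clock at -1.24 and Per1 at -1.63, each past the threshold, and Dbp at 0.98. The epithelial level did not overlap between HFD and NC mice, so these values cannot part it from the diet. Without the covariate, the intervals still hold differences near 0.9 in either direction for Nr1d1 and Dbp.

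Compared with HFD, 2 of the 10 genes were changed in SZ-A mice, and in opposite directions. Arntl was lower and Cry1 was higher. Of all 14695 genes tested, 13.3% were lower and 9.47% higher, so 1 of 10 in each direction is close to what the whole table shows. The added log2 fold change limit of 1.5 called 0 of 10 clock genes and 0.864% of all genes, and 0 of 10 clock genes had groups without overlap against 6.08% of all genes. The median difference was 0.21 for the 10 genes and 0.03 for all genes. An unadjusted p under 0.05 was reached by 5 of the 10, namely Arntl, Cry1, Cry2, Per2 and Per3, and by 37.7% of all genes. SZ-A against HFD and HFD against NC share the HFD mice, so opposite signs in the 2 comparisons are not independent of each other.

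Arntl was 1.12 to 2.58 FPKM in SZ-A mice, with a median of 1.5, against a median of 3.08 in HFD mice. The means were 1.74 ± 0.57 FPKM (SD, n = 7) and 3.23 ± 1.21 FPKM (SD, n = 7). All HFD mice but HFD 2 and HFD 5 were above each SZ-A mouse, and SZ-A 1, SZ-A 3, SZ-A 6 and SZ-A 7 were below each HFD mouse. The difference was -0.60 (SE 0.19, 95% interval -0.99 to -0.20, limma adjusted p = 0.031, two-sided exact permutation p = 0.012). The call was lost, at a limma adjusted p between 0.053 and 0.066 and a difference between -0.51 and -0.60, when HFD 1, HFD 3, HFD 4, HFD 7, SZ-A 1, SZ-A 3 or SZ-A 7 was left out.

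Cry1 was 3.09 to 5.34 FPKM in SZ-A mice, with a median of 4.90 and a mean of 4.68 ± 0.76 (SD, n = 7), against a median of 3.25 in HFD mice. The groups overlapped through SZ-A 5, at 3.09, and HFD 2, at 4.66 FPKM: the other SZ-A mice were at 4.58 or above and the other HFD mice at 3.51 or below. The difference was 0.44 (SE 0.13, 95% interval 0.17 to 0.72, limma adjusted p = 0.024, two-sided exact permutation p = 0.0099). Without HFD 1 it was 0.40 (limma adjusted p = 0.053) and without HFD 5 it was 0.39 (limma adjusted p = 0.057), both short of the threshold. With the epithelial covariate neither Arntl (-0.59) nor Cry1 (0.43) was called, while Per2 was (1.20).

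The other repressors had higher means in SZ-A mice without passing the test. Per2 (chr1:91415982-91459324, minus strand) was 1.21 to 9.80 FPKM in HFD mice (median 2.93) and 2.36 to 12.2 in SZ-A mice (median 7.99). All HFD mice but HFD 2 were at 6.04 FPKM or below, and 5 SZ-A mice were above that level. The difference was 0.84 (SE 0.36, 95% interval 0.08 to 1.59, limma adjusted p = 0.10), and it passed the threshold without HFD 2, at 1.05 (adjusted p = 0.035 by limma), or without SZ-A 2, at 1.04 (adjusted p = 0.031 by limma).

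Per3 differed by 0.48 (95% interval 0.03 to 0.93, limma adjusted p = 0.11) and passed the threshold without HFD 2, at 0.61, or SZ-A 5, at 0.57. Cry2 was 2.34 to 8.23 FPKM in HFD mice, and SZ-A mice had 5.56 to 13.9 FPKM. SZ-A 1, SZ-A 3 and SZ-A 4 were above each HFD mouse. The difference was 0.55 (95% interval 0.08 to 1.02, limma adjusted p = 0.086, two-sided exact permutation p = 0.033), and without SZ-A 5 it was 0.63 and past the threshold (limma adjusted p = 0.048). Per1 (0.22, 95% interval -0.23 to 0.68), Nr1d1 (0.20, -0.38 to 0.78), Nr1d2 (0.02, -0.43 to 0.48), Dbp (-0.06, -0.92 to 0.80) and Clock (-0.09, -0.31 to 0.13) had smaller differences, of which that of Clock was the most narrowly bounded.

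**Figure D2:**
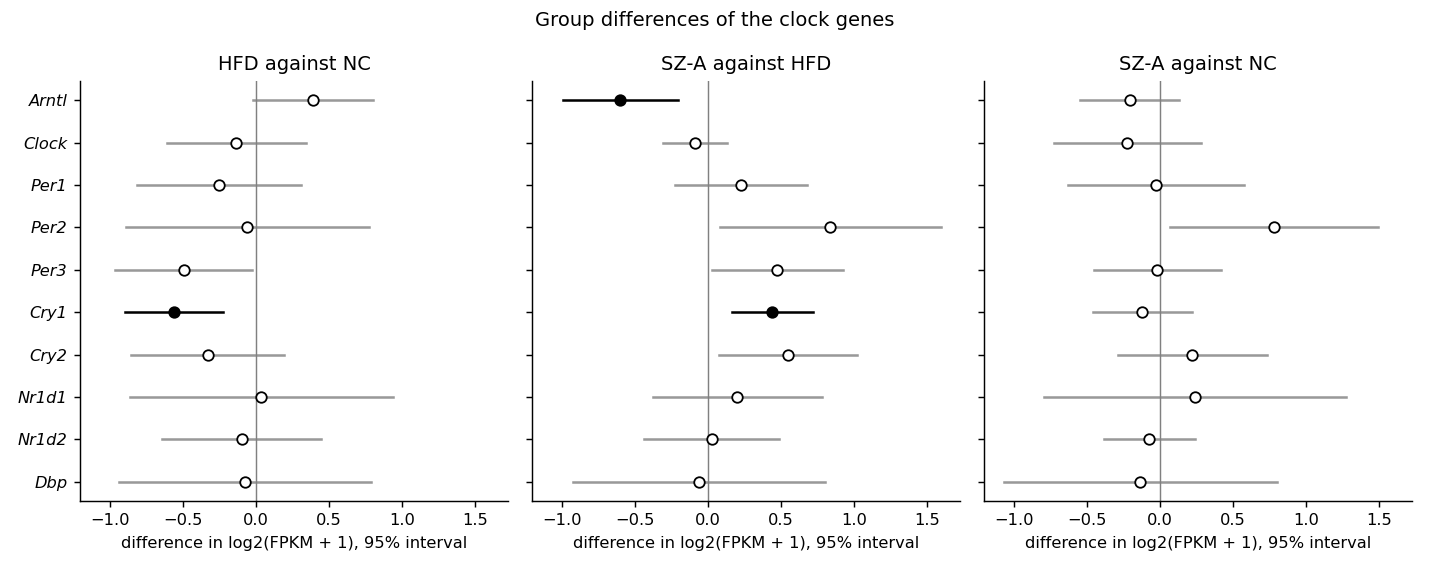
Differences of the 10 clock genes on the log2(FPKM + 1) scale (x axis) with 95% limma intervals, one panel per comparison; filled points passed an adjusted p of 0.05. The filled points are Cry1 in HFD against NC (-0.56) and, in SZ-A against HFD, Arntl (-0.60) and Cry1 (0.44); the panel of SZ-A against NC has none.

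Between SZ-A and NC mice, 0 of the 10 genes were called by limma, and voom on recovered fragments also called 0. Of all 14718 genes tested, 4.15% were higher and 0.455% lower in SZ-A, 1.79% passed the added log2 fold change limit and 3.57% had groups without overlap, and the clock genes numbered 0 under each of these rules. An unadjusted p under 0.05 was reached by 19% of all genes and by 1 of the 10, Per2, at 0.78 above NC (95% interval 0.07 to 1.49, limma adjusted p = 0.22). Per2 was 1.36 to 6.41 FPKM in NC mice, and 5 SZ-A mice were above each NC mouse. For the genes called against HFD, the differences from NC were -0.21 for Arntl (95% interval -0.55 to 0.13) and -0.12 for Cry1 (-0.46 to 0.22). The median difference of the 10 genes was -0.05 and that of all genes 0.00 on the log2 scale.

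Mice of a single group differed widely in several clock genes. The within-group SD of log2(FPKM + 1) was 0.83 for Dbp, 0.79 for Nr1d1 and 0.71 for Per2, against 0.26 for Cry1 and 0.34 for Arntl. These SDs placed Dbp, Nr1d1 and Per2 at the 92.4, 90.9 and 87.7 percentiles of all genes above the filter, and Cry1 at the 27.4 percentile. Without NC 6 the SD of Nr1d1 was 0.58, while those of Dbp and Per2 were 0.85 and 0.69. Cry1 and Arntl, the genes called between groups, had the smallest within-group SDs of the 10, but without NC 6 that of Clock (0.27) was below that of Arntl (0.35).

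Nr1d2 varied unequally from group to group. It was 10.5 to 19.6 FPKM in NC mice and 6.75 to 20.9 FPKM in HFD mice, but 11.2 to 14.9 FPKM in SZ-A mice. The SDs were 3.29 (n = 6), 5.58 (n = 7) and 1.3 FPKM (n = 7), and the difference between them was not tested. Nr1d1, its paralogue, did not share this pattern, with SDs of 14.1, 4.74 and 11.1 FPKM in the same order. Its level in SZ-A mice ran from 10.5 to 37.8 FPKM, with SZ-A 2 and SZ-A 5 far below the other 5 mice, which were at 23.4 FPKM or above.

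HFD 2 was at the edge of its group in 7 of the 10 genes. It had the lowest Arntl of the HFD mice (1.69 FPKM) and the highest Per2 (9.80), Per3 (4.33), Cry1 (4.66), Clock (6.92), Nr1d1 (28.2) and Nr1d2 (20.9 FPKM). It was not highest for Per1, Cry2 or Dbp, at 15.2, 6.11 and 8.66 FPKM. The other end of the group was held by HFD 4 and HFD 7, with the most Arntl and the least Per2, Per3 and Nr1d2. Between these ends Per2 differed from 9.80 to 1.21 FPKM within the one group. SZ-A 5 was at the edge of its own group for each of the 10 genes except Per2. It had the highest Arntl (2.58 FPKM) and Per1 (28.3 FPKM) and the lowest Clock, Per3, Cry1, Cry2, Nr1d1, Nr1d2 and Dbp.

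The mouse with the most Arntl in a group was at or near the bottom for Dbp. In NC, NC 3 had the highest Arntl (3.15 FPKM) and the lowest Dbp (2.25 FPKM). In SZ-A, SZ-A 5 had the highest Arntl (2.58 FPKM) and the lowest Dbp (1.08 FPKM). In HFD, HFD 4 and HFD 7 had the highest Arntl (4.84 and 4.58 FPKM) and the lowest Dbp (2.47 and 2.23 FPKM). The pattern crossed the groups, with exceptions among the NC mice. NC 5 had low Dbp (3.14 FPKM) and an Arntl level of 1.81 FPKM. NC 2 had the second highest level of its group for both Arntl (2.47 FPKM) and Dbp (10.2 FPKM).

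The relation was measured on deviations from the group means over the 20 mice, for all 45 pairs of the 10 genes, with permutation of mice within groups (100000 resamples) and adjustment over the 45 pairs. Arntl and Dbp had r = -0.76 (Spearman rho = -0.69; permutation p = 0.00021 and 0.0016; adjusted permutation p = 0.0065 and 0.018). The sign was the same in each group, with r = -0.52 among NC mice, -0.84 among HFD mice and -0.89 among SZ-A mice. Arntl and Per3 had r = -0.76 as well (rho = -0.72; permutation p = 0.00048 and 0.0011; adjusted permutation p = 0.0065 and 0.018), with r = -0.62, -0.89 and -0.62 in the groups. Without the 2 mice farthest from the median of Arntl, HFD 4 and HFD 7, both pairs had r = -0.66 and an adjusted permutation p of 0.080, so the calls rest on those mice.

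**Figure D3:**
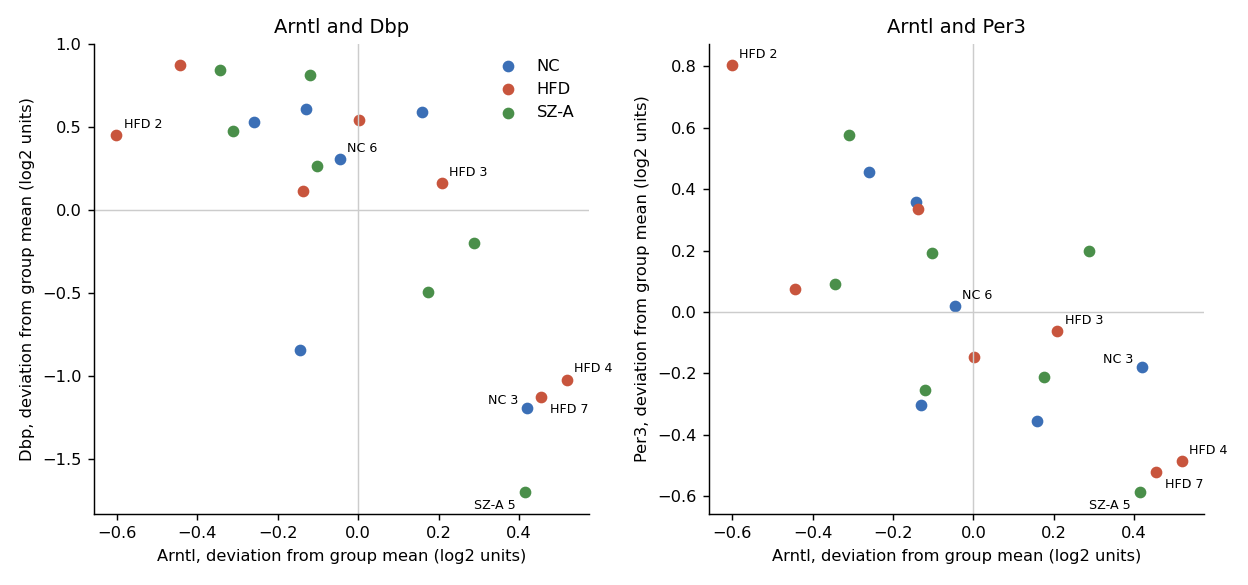
Deviation of each mouse from its group mean for Arntl (x axis) against Dbp (left y axis) and Per3 (right y axis), in log2(FPKM + 1) units, with colours for the NC, HFD and SZ-A groups. HFD 4, HFD 7, NC 3 and SZ-A 5 sit at the lower right for Dbp, where Arntl was high and Dbp low, and r over the 20 mice was -0.76 in both panels.

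In all, 13 of the 45 pairs had an adjusted permutation p under 0.05, 10 with positive and 3 with negative r. The 3 negative pairs joined Arntl with Dbp, Per3 and Nr1d2. For Arntl and Nr1d2 (r = -0.68, rho = -0.63; permutation p = 0.0067 and 0.011; adjusted permutation p = 0.030 and 0.041), the 6 NC mice went the other way, with r = 0.24, and the remaining 12 pairs kept a single sign in each group. The strongest positive pairs were Per1 with Per2 (r = 0.71, rho = 0.79; permutation p = 0.00072 and 0.00014; adjusted permutation p = 0.0065 and 0.0063) and Clock with Cry1 (r = 0.70, rho = 0.66; permutation p = 0.00064 and 0.0047; adjusted permutation p = 0.0065 and 0.031). Arntl and its partner Clock had r = 0.05 and rho = 0.02 (permutation p = 0.81 and 0.94). Without NC 6, 10 of the 13 pairs remained past the threshold, and the 3 lost ones joined Cry1 and Cry2 with each other or with Nr1d1. Without the 2 mice farthest from the median of the first gene of a pair, 0 of the 13 did. The cells in each piece of tissue and the hour of collection could differ from mouse to mouse, and their part in these relations was not tested.

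**Figure D4:**
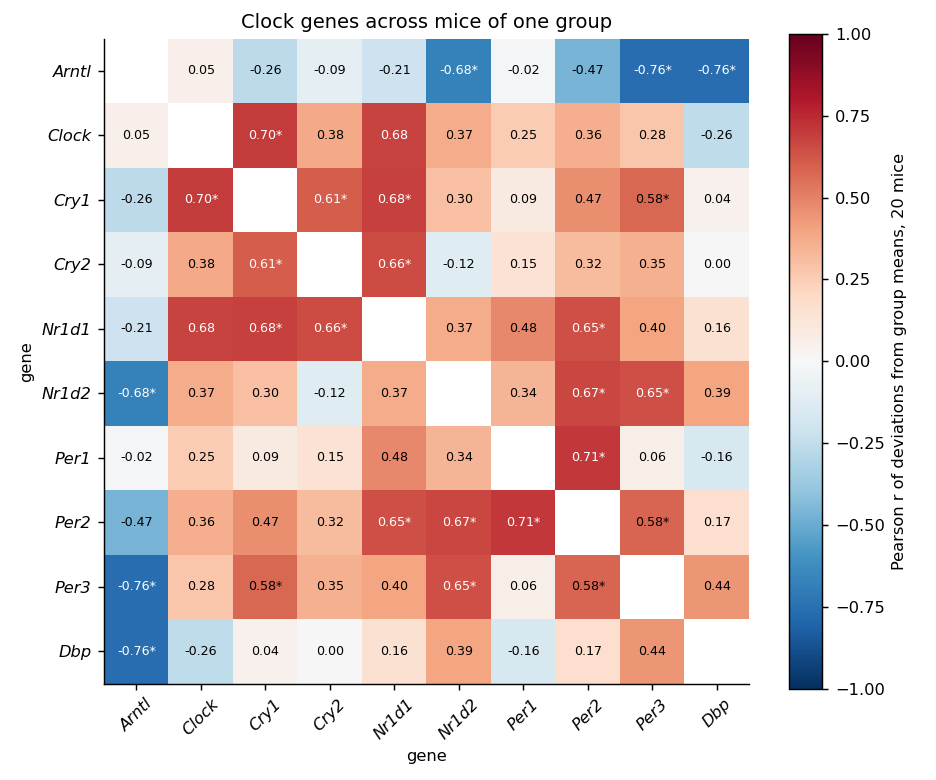
Pearson r between the 10 clock genes (both axes) over 20 mice, on deviations of log2(FPKM + 1) from the group means; an asterisk marks an adjusted permutation p under 0.05. The row of Arntl is negative for Nr1d2, Per3 and Dbp (-0.68 to -0.76), and the marked pairs among the other genes are positive.

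The genes whose deviations ran most like those of Arntl, among 12449 genes and over the same 20 mice, were Wdr5b (r = 0.72), Nfil3 (0.66), Mtmr11 (0.64), Nxn (0.62) and Npas2 (0.59). Nfil3 encodes a repressor that binds D-boxes and Npas2 a paralogue of Clock. Those that ran most against Arntl were Tef (r = -0.83), Gm45819 (-0.78), Dbp (-0.76), Per3 (-0.76) and Nr1d2 (-0.68), and Tef encodes a D-box activator related to Dbp. Thus 2 of the 5 highest and 4 of the 5 lowest were clock genes. These values are descriptions of the 20 libraries, and no p is given. Marker levels of cell types differed between the mice and the hour of collection of each is not given. The part of either in these values was not tested.

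For Dbp the highest r belonged to Gm45819 (0.81), Ssu72 (0.78), Gm12989 (0.72), Chmp5 (0.72) and Mettl3 (0.70). The lowest belonged to Arntl (-0.76), Gm27003 (-0.74), Ankrd16 (-0.74), Rdh5 (-0.74) and Zfp281 (-0.74). Arntl was thus the gene that ran most against Dbp among the genes compared. Tef and Hlf, the other D-box activators of the family, had r = 0.59 with Dbp each, and Nfil3 had r = -0.70.

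Tef was named for its r with Arntl over these same mice, so its levels in single mice are not a separate test. In HFD mice Tef was 6.21 FPKM in HFD 4 and 5.90 in HFD 7, and 9.06 to 16.7 in the other 5. SZ-A 5 had the lowest Tef of the SZ-A mice, 11.1 FPKM, and the lowest Hlf, 0.32 FPKM. NC 3 had the second lowest Tef of its group, 11.8 FPKM, and the highest Nfil3, 9.83, and the highest Npas2, 3.43 FPKM. In these 4 mice, taken for their high Arntl and low Dbp, Tef was thus also low for their group. NC 6 had the lowest Tef of the NC mice, 10.5 FPKM, at an Arntl level of 2.01 FPKM.

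Beyond the 10 genes, 31 further genes of the clock and its regulation were listed and 30 were in the table. In HFD against NC, 2 of the 30 were higher and 6 lower, beside 21% and 20.1% of all genes. The median difference of the 30 was -0.10, against -0.04 for all genes. The genes that rose were Timeless (0.84), which acts in DNA replication as well, and Npas2 (0.75). Those that fell were Hlf (-1.59), Usp2 (-1.42), Skp1a (-0.88), Hdac3 (-0.53), Ppargc1a (-0.40) and Btrc (-0.31). Btrc was no longer called without any single one of the HFD mice, NC 1, NC 5 or NC 6, with a log2 difference of -0.21 to -0.36 over all omissions. It was also lost after quantile scaling (-0.28), with a mean of at least 1 FPKM (-0.31) and with mouse weights (-0.16). Ppargc1a was not without NC 3, NC 4, NC 5, HFD 1, HFD 4, HFD 5 or HFD 7, with a difference of -0.30 to -0.48. Usp2, a deubiquitinase, and Hlf were no longer called once the epithelial marker level was a covariate, at -0.08 and -0.50, nor were Hdac3 (-0.20), Skp1a (-0.83) and Timeless (0.45), and Npas2 (-0.44) and Btrc (0.18) turned sign without a call. The covariate called 5 others instead, among them Bhlhe40, Bhlhe41, Noct and Sirt1, for 6 in all, and mouse weights called 12. As HFD and NC mice did not overlap in the epithelial level, fits with it cannot part that level from the diet.

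In SZ-A against HFD, 2 of the 30 genes were higher and 1 was lower, beside 9.47% and 13.3% of all genes, with a median of 0.01 against 0.03. With mouse weights 13 of the 30 were called. Usp2 rose by 0.91 and Skp1a, a part of the ubiquitin ligases that act on clock proteins, by 0.55. Npas2 was lower, at -0.89 (95% interval -1.26 to -0.51, limma adjusted p = 0.0035). Npas2 was 1.85 to 3.99 FPKM in HFD mice and 0.46 to 1.99 FPKM in SZ-A mice, and NC mice had 0.43 to 3.43 FPKM. Only SZ-A 5 at 1.99 FPKM reached into the HFD range, where HFD 2 at 1.85 and HFD 6 at 1.99 were lowest. Usp2 was no longer called without HFD 1, HFD 3, HFD 5, HFD 7, SZ-A 3, SZ-A 4 or SZ-A 7, with a difference of 0.74 to 1.07 over all omissions. Its call was also lost with the epithelial covariate (0.37) and in the fit of all 3 groups (0.91). In SZ-A against NC, 0 of the 30 were called by limma and 0 by voom, and 4, Timeless, Hlf, Hdac3 and Sfpq, had an unadjusted p under 0.05. Timeless alone was called in the fit of all 3 groups, without NC 4 and without SZ-A 2, and mouse weights called 3, Hlf, Timeless and Wdr5.

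**Figure D5:**
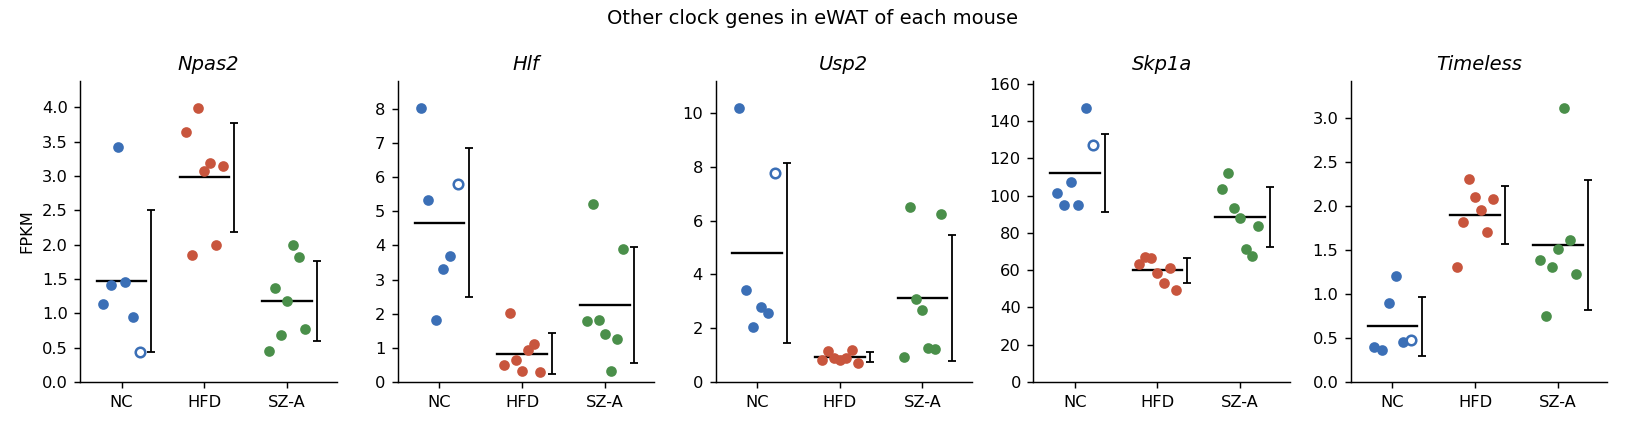
FPKM of Npas2, Hlf, Usp2, Skp1a and Timeless in each mouse (y axis from 0; groups on the x axis), with the group mean as a line, the SD as a bar and NC 6 as an open circle. Npas2 is high in HFD, at 1.85 to 3.99 FPKM, and Timeless does not overlap between NC (0.37 to 1.20 FPKM) and HFD (1.31 to 2.31 FPKM). Nor do Usp2 (2.04 to 10.2 and 0.71 to 1.17 FPKM) and Skp1a (94.8 to 147 and 49.4 to 66.9 FPKM), as for 20.5% of all genes. Skp1a also does not overlap between HFD and SZ-A, as for 6.08% of all genes.

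Gene lists of stimuli known to act on Per genes were set beside them. Of 6 genes that respond to glucocorticoids, Per1 among them, 0 were higher and 1, Fkbp5, lower in HFD against NC, and 0 were called in the other comparisons. Of 9 immediate early genes, 5 were higher in HFD than in NC, 2 lower in SZ-A than in HFD and 2 higher in SZ-A than in NC. The shares of all genes in these directions were 21%, 13.3% and 4.15%, and 20.1% for genes lower in HFD against NC. Per1 itself was 8.10 to 29.4 FPKM in NC mice and 9.15 to 20.7 FPKM in HFD mice. The SZ-A mice, at 11 to 28.3 FPKM, overlapped widely with both.

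Some of the exon sequence of these genes is shared with a gene on the other strand, and the library kit named in the labels is of a kind that does not keep strand. Sphk2 covers 18.0% of the exon bases of Dbp, Thra 8.55% of Nr1d1, D930015M05Rik 4.67% of Cry2 and Gm45355 0.439% of Arntl in GENCODE M21. Fragments from the shared bases cannot be assigned to either gene, and how the authors' counting treated them is not stated. The remaining 6 genes share no exon base with another gene.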

How the data were processed

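The authors isolated RNA with TRIzol, built poly(A) libraries with a NEBNext Ultra kit, sequenced them as read pairs, aligned them to GRCm38 with HISAT2 and deposited FPKM. The submitters' processing notes name featureCounts 1.5.0-p3. The annotation release, the filter on genes and a batch or date are not given in the sources used here. Each deposited gene was above 0 in all 20 mice, so a gene at 0 in any mouse is not in the table.

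From these FPKM, the 3 pairs of groups were each fitted on log2(FPKM + 1) with limma 3.58.1 (lmFit, eBayes with trend; R 4.3.3). A gene was tested if its mean over the mice of that pair reached 0.1 FPKM, with Benjamini-Hochberg adjustment over all of them and a threshold of 0.05. A fold change on this scale understates the change of low genes. The study's own comparison used counts, so its count model was not used. Fragments were recovered from FPKM and GENCODE M21 exon length (14770 of 14776 genes matched) for depth and for the alternative with voom, and 95.9% to 96.3% of values under 1000 were whole within 0.01. Exact permutation tests of single genes were two-sided, over every regrouping of the mice. Deviations and spread were computed over genes whose mean reached 1 FPKM. The steps were tested on simulated data.

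Nothing in the labels says more than that the mice are separate samples, and 0 pairs had identical values. P-values measure the spread between these mice. The 10 genes, the gene lists and the tests were chosen with earlier results of these data known. All 10 genes are named, with the other clock genes called (at most 8 per comparison by largest change) and the 5 genes most and least like Arntl and Dbp. Some items on these lists are not reported here. Alternatives were a pseudocount of 0.1, no filter or a mean of at least 1 FPKM, median-ratio and quantile scaling, 1 fit of all groups, mouse weights, voom, a replicate block, an epithelial covariate and leaving out each mouse. Those without NC 6, or NC 6 with SZ-A 5, were chosen after seeing the data, as was a pseudocount of 0.1 for the exact tests. Plots were drawn with matplotlib 3.10.9.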

Additional observations from a re-analysis of the deposited data

Results flagged for a closer look

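Among the levels of the named clock genes in single groups, 54 groups of mice were checked for a mouse far from the rest by Dixon's ratio, and 1 stood out. Cry1 in SZ-A 5, at 3.09 FPKM, was the lowest of the SZ-A mice, and its gap to the next mouse was 0.709 of the whole range of the group. Chance alone marks about 1 in 20 groups. SZ-A 5 also had the lowest Dbp, Clock, Per3, Cry2, Nr1d1 and Nr1d2 of its group and the highest Arntl and Per1. Its mitochondrial share of reads was the highest and the scaling total behind its FPKM the smallest, and the part of these in the value was not tested. Without SZ-A 5, Cry1 remained higher in SZ-A than HFD mice, by 0.52 on the log2(FPKM + 1) scale.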

How the results depend on the processing

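The counts of clock genes called were the same under both pseudocounts, the filters on low values, both scalings, the fit of all 3 groups and voom. In HFD against NC the count was 1. It was 0 with the log2 fold change limit, 3 with mouse weights (Per1 and Per3 added), 4 with the epithelial covariate (Clock, Per1 and Nr1d1 added) and 1 to 3 when a mouse was left out. In SZ-A against HFD the count was 2. It was 0 with the limit, 6 with mouse weights (Per2, Per3, Cry2 and Nr1d1 added), 1 with the covariate (Per2, with Arntl and Cry1 lost) and 0 to 4 when a mouse was left out, with 0 without HFD 1. In SZ-A against NC it was 0 throughout. By the exact test, 1 clock gene passed an unadjusted 0.05 in HFD against NC and 2 without NC 6. Of the 13 related pairs, 0 remained without the 2 mice farthest from the median. Where a cause is not shown by the construction of the alternative, the cause was not tested.

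Mice with the same number did not consistently deviate together. Correlations ran from -0.30 to 0.31 in HFD against NC, -0.40 to 0.39 in SZ-A against HFD and -0.41 to 0.59 in SZ-A against NC. The highest of each comparison was that of number 4. The numbers are not known to pair the mice. With the replicate number as a block, 0 clock genes were called in HFD against NC (Cry1 at -0.54, against -0.56 without the block) and 1, Cry1, in SZ-A against HFD (Arntl at -0.60 with and without it), and 173 genes of the whole table in SZ-A against NC. The block also turned the signs of Dbp (0.11), Nr1d2 (0.040) and Per2 (0.11) in HFD against NC and of Per1 (0.052) and Per3 (0.024) in SZ-A against NC.

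Over the whole table, 6047 genes were called in HFD against NC and 3086 with the covariate. In SZ-A against HFD, 3349 were called, 2089 in the fit of all groups and 6403 with mouse weights. In SZ-A against NC, 678 were called, 1527 in the fit of all groups, 2639 with mouse weights, 174 with the covariate and 423 to 860 when a mouse was left out.

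Other signs that turned were of differences that were not called before, apart from Btrc (0.18) and Npas2 (-0.44) in HFD against NC with the covariate. The covariate gave 0.98 for Dbp and -2.29 for Nr1d1 in HFD against NC, and 0.37 for Dbp and -0.39 for Nr1d1 in SZ-A against NC. Nr1d1 in HFD against NC was -0.55 with mouse weights and -0.070 after quantile scaling. Mouse weights gave 0.55 for Dbp in SZ-A against HFD and 0.18 for Per3 in SZ-A against NC. Without NC 6 and SZ-A 5 together, Dbp (0.21) and Per3 (0.083) turned in SZ-A against NC.

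Leaving out each mouse in turn, the differences in HFD against NC ran from -0.31 to 0.11 for Dbp, -0.38 to 0.26 for Nr1d1, -0.21 to 0.040 for Nr1d2 and -0.27 to 0.11 for Per2. In SZ-A against HFD they ran from -0.25 to 0.22 for Dbp and -0.11 to 0.14 for Nr1d2. In SZ-A against NC they ran from -0.37 to 0.15 for Dbp, -0.18 to 0.46 for Nr1d1, -0.14 to 0.027 for Nr1d2, -0.21 to 0.14 for Per1 and -0.11 to 0.080 for Per3.

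Depth limits the lowest values most: Dbp in SZ-A 5 rests on 45 fragments, and Arntl in its lowest mouse on 155.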
